A study of Mus musculus with 36 samples.

Results

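A set of 10 genes of muscle atrophy and myostatin signalling were followed through RNA sequencing of C2C12 cells, an established line of mouse myoblasts that was kept proliferating. They were taken by name, whatever their values, from the 49315 genes counted: the ubiquitin ligases Fbxo32, Trim63, Fbxo30 and Cblb, the transcription factors Foxo1, Foxo3 and Klf15, and Mstn, Fst and Acvr2b of the myostatin pathway. There were 6 groups of 3 libraries. Cells were held in space without gravity, in space with gravity or on land, and each regime was run without nanoceria and with nanoceria, particles of cerium oxide given at 100 µg/ml in the reservoir of culture medium. All cells were the same line, with no genetic change named in the labels, and were grown in the same sealed hardware and fixed with RNAlater. The regimes "without gravity" and "with gravity" are the labels' words. The ground run was a separate experiment made after the flight, so the regime and the run cannot be told apart where space is set against land.

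Muscle loses mass when protein is broken down faster than it is made. Much of that breakdown goes through ubiquitin ligases, which mark proteins for the proteasome: Fbxo32 (atrogin-1) and Trim63 (MuRF1) are the best known of them in muscle. Their transcription is driven by FoxO factors, which Akt keeps out of the nucleus when growth signals are present. Myostatin, a secreted factor of the TGF-beta family encoded by Mstn, limits muscle growth through the receptor encoded by Acvr2b, and follistatin, encoded by Fst, binds and blocks it.

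No gene of the 10 passed the adjusted threshold in any of the comparisons made on filtered counts with edgeR's quasi-likelihood test (Benjamini-Hochberg adjusted p of 0.05 over all 11558 genes tested), and 2 of the 10, Trim63 and Mstn, were too low to be tested. Of all genes tested, 14% passed in space with gravity against land and 5.25% in space without gravity against land. The share was 0.0433% or less in every other comparison. Among the 8 tested genes of the set, Fbxo32 lay higher in the deeply sequenced libraries of space with gravity than in all 6 land libraries. Ranges were apart in that comparison for 7.82% of all genes. Fst lay lower in most space libraries, and Cblb reached its highest level in a single land library. None of these patterns passed the edgeR threshold with all libraries and that filter, and each depended on a scaling, a filter, a test or a library, as given beside it.

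Libraries held between 2986628 and 11378178 counts, except for replicate 3 of space with gravity with nanoceria, which held 23858 counts in 4880 genes. In that library 3 counts amounted to 35.7 CPM (counts scaled by library size and by edgeR's TMM factors), more than the level of most of the 10 genes, so levels below are given for the other 17 libraries and its own values separately. Myoblast markers were present: Vim, Des and Myf5 had counts in all 18 libraries, while Myod1 had 99 counts in 10 libraries and Msc 1 count in all. Replicate 1 of land without nanoceria held 762 of the 1369 counts of 9 genes of differentiating myotubes (55.7%), against at most 89 in any other library. The part of these markers in the results was not tested, and counts of genes called are also given below without that library where they changed. Replicate 3 of land with nanoceria held 5375 of the 11768 counts of Col1a1. Adipoq and Adgre1, markers of fat cells and macrophages, had no counts in any library. Other markers of these cells did have counts in the whole study. They were Pparg with 193, Fabp4 with 47 and Plin1 with 2 for fat cells. For macrophages they were Cd68 with 1770, Csf1r with 24 and Ptprc with 6. Summed over 8 genes, myoblast markers stood between 641 and 1506 CPM on land. The sum was 401 to 541 in the 5 deep libraries of space with gravity and 530 to 729 in space without gravity. Vim held 47512 of the 67451 counts in this sum, so it mostly followed Vim. Myf5 and Des had their most raw counts in libraries of space with gravity (1938 and 1635). These were deep libraries, with sizes after TMM scaling of 15511844 and 12629124, against 7121233 for the largest on land. The raw counts therefore do not compare levels between regimes. A fixed set of 6 dominant genes (Lars2, Gm23935, Gm15564, Gm24270, Gm24187 and Gm25911) held 49.6 to 76.3% of the counts of a library on land, 24.5 to 54.4% in those 5 libraries and 40.7 to 70.4% without gravity. That share and the summed level of the myoblast markers, mostly Vim, moved with the regime. Their part in the differences between space and land was not tested beyond a fit with the share as a covariate. In such bulk libraries, fewer cells of a type and less RNA per cell cannot be told apart.

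Per kilobase of gene length, the order of the median levels over 17 libraries was Foxo3 with 9.15 CPM per kilobase, Cblb with 5.07, Fst with 2.52, Foxo1 with 1.88, Fbxo32 with 1.77, Fbxo30 with 1.37, Klf15 with 1.01 and Acvr2b with 0.427. The medians of Trim63 and Mstn were 0. Neighbours in this order overlapped widely between libraries.

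**Figure D1:**
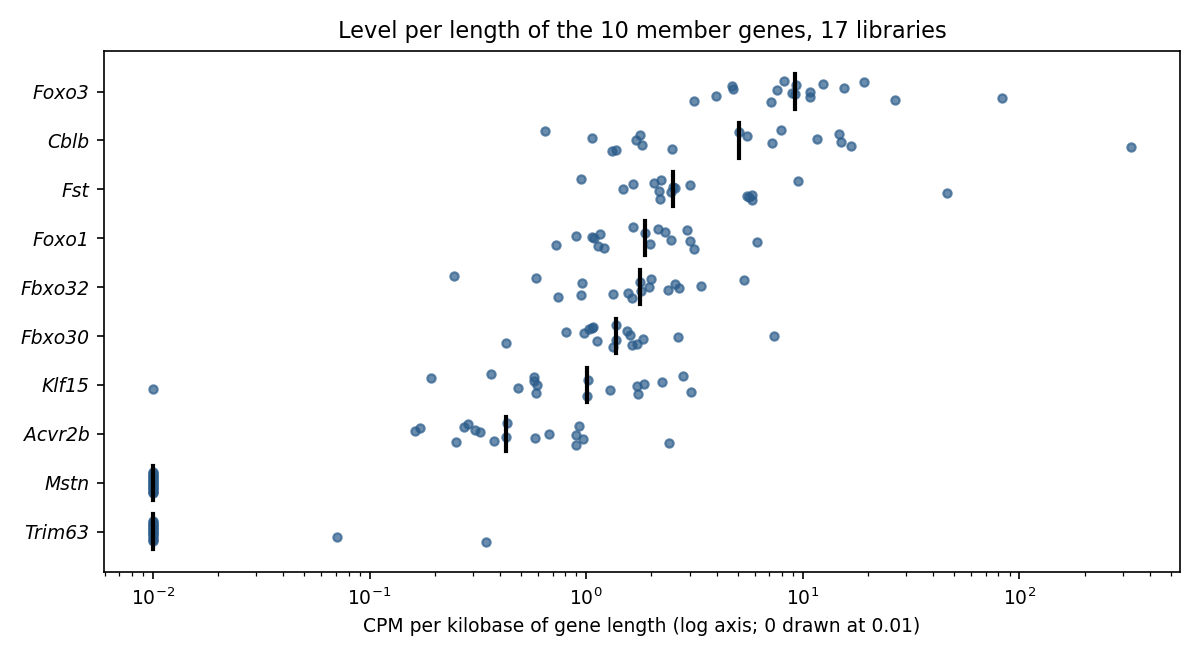
Level of each gene in CPM per kilobase of gene length (horizontal log axis, with 0 drawn at 0.01), 1 point for each of 17 libraries and a bar at the median. Foxo3 has the highest median, at 9.15 CPM per kilobase, Acvr2b the lowest of the tested genes, at 0.427, and Trim63 and Mstn lie at 0 in nearly all libraries.

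Trim63 (ENSMUSG00000028834, GRCm38 chromosome 4, 134315120 to 134329629), the MuRF1 ligase of the sarcomere, had 8 counts in the whole study. Of these, 7 were in replicate 1 of land without nanoceria, the library that also held most of the myotube marker counts, and 1 was in replicate 2 of land with nanoceria. The 12 space libraries had none. The summed level of the 9 myotube markers ran from 4.60 to 107 CPM on land without nanoceria and stood at 18.9 CPM or less in the deep libraries of the other groups. Its promoter is shown because it was the only one of the 8 promoters searched that held either the FoxO core motif or the E-box searched for, in a gene that these proliferating cells hardly transcribed. The sequence is that of RefSeq for GRCm38.p6, chr4:134314870-134315169 on the plus strand, from 250 bases before the start, and the capitals mark the FoxO core GTAAACA, read on the other strand as TGTTTAC at −194 from the start, and the E-box CAGCTG at −72:

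Trim63 promoter: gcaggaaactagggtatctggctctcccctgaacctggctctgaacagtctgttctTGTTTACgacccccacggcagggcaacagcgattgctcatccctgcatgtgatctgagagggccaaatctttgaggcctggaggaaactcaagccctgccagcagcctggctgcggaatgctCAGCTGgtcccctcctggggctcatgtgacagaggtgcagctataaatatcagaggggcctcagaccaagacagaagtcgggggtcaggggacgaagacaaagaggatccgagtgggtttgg

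Promoters of 8 of the 10 genes were in the RefSeq table, all but Fbxo32 and Fst. On either strand, GTAAACA was in 1199 of 32851 promoters of this length (3.65%) and in 1 of the 8. The E-box, the usual site of MyoD and its relatives, was in 16.3% of all promoters and in 1 of the 8. The palindrome GTCTAGAC bound by Smad proteins was in 0.213% of all promoters and in none of the 8. The motifs do not overlap, and a match describes the letters only.

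Fbxo32 (ENSMUSG00000022358, chromosome 15, 58175879 to 58214892) encodes atrogin-1, the substrate-binding part of a ligase complex. Its CPM on land was 11.2, 5.11 and 6.57 without nanoceria and 9.26, 10.8 and 12.4 with it. Space with gravity gave 16.5, 18.7 and 13.5 for untreated cells and 23.4 and 17.9 for treated cells in replicates 1 and 2, while the smallest library had no count. Space without gravity gave 6.62, 12.3 and 37.1 for untreated cells and 13.8, 4.08 and 1.69 for treated cells. The 5 deep libraries of space with gravity (13.5 to 23.4 CPM) thus lay above all 6 land libraries (5.11 to 12.4 CPM), and the 6 libraries without gravity spanned both ranges. Among all genes tested, 7.82% had ranges that did not overlap in this comparison, and Fbxo32 was the only one of the 8. Within treatments 2 of the 8 had ranges apart without nanoceria (Fbxo32 and Fbxo30 higher, against 29.7% of all genes) and 3 of the 8 with it (Fbxo32 higher, Fst and Acvr2b lower, against 30.8%), shares near those of all genes. With DESeq2 size factors in place of TMM the ranges overlapped, at 12.1 to 20.5 against 6.25 to 15.8 CPM. The fitted log2 difference between space with gravity and land was 0.88 ± 0.52 (SE, 95% interval −0.22 to 1.98, edgeR adjusted p 0.258). It was 0.35 (edgeR adjusted p 0.940) in the fit with the 6-gene share of counts as covariate. That fit called only 1 of all genes in this comparison, against 1613 in the main fit. Fbxo32 shares 186 of its 6936 exon bases with Gm15943, an antisense gene with 7 counts in all, and the use of strand in counting was not stated.

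Fbxo30 (ENSMUSG00000047648, chromosome 10, 11281330 to 11298052), the ligase also known as MUSA1, was low and even in most libraries. Its CPM was 6.88, 8.44 and 8.87 on land without nanoceria and 2.22, 5.81 and 7.16 with it. Untreated cells in space with gravity had 9.54, 13.8 and 38.2 CPM, and treated cells 8.24, 5.10 and, from 1 count, 11.9. Untreated cells in space without gravity had 4.21, 8.05 and 5.35 CPM, and treated cells 5.53, 5.57 and 7.11. The 3 libraries of space with gravity without nanoceria were the highest group, with replicate 3 far above the other 2. They lay above every library of the same treatment in the other regimes. For untreated cells, 29.7% of all genes had ranges apart between space with gravity and land. The share was 12.3% between space with and without gravity. Without nanoceria, the log2 difference of space without gravity from space with gravity was −1.80 ± 0.57 (SE, edgeR p 0.00559, adjusted p 1), and averaged over both treatments it was −1.02 ± 0.42 (p 0.025, adjusted p 0.766). Without that replicate 3 the averaged difference was −0.63 (edgeR adjusted p 0.991).

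Cblb (ENSMUSG00000022637, chromosome 16, 52031549 to 52208047), a ligase that marks signalling proteins, among them IRS-1 in unloaded muscle, varied most. Replicate 1 of land with nanoceria held 5580 of its 10411 counts (53.6%). Its CPM was 8.29, 8.69 and 15.8 on land without nanoceria and 2066, 105 and 11.4 with it. Under gravity in space, Cblb stood at 45.5, 94.6 and 10.7 CPM in untreated cells and at 73.2, 6.70 and, from 1 count, 11.9 in treated cells. Without gravity it stood at 35.1, 11.2 and 93.2 CPM in untreated cells and at 32.0, 4.08 and 49.9 in treated cells. Within 5 of the 6 groups the highest library was thus several times the lowest, and the land group without nanoceria was the most even.

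Foxo3 (ENSMUSG00000048756, chromosome 10, 42181841 to 42276755), a FoxO factor that activates both atrophy ligases and autophagy genes, had the highest median level per length of the 10. Its CPM was 54.1, 23.8 and 202 on land without nanoceria and 626, 81.5 and 29.9 with it. Space libraries with gravity had 69.3, 67.5 and 81.7 CPM of Foxo3 untreated and 57.3, 36.2 and, from 2 counts, 23.8 treated. Those without gravity had 117, 35.6 and 70.8 CPM untreated and 94.1, 145 and 62.1 treated. The 2 highest values were on land, in different treatments, and the land range enclosed that of both space regimes. The library with the most Cblb also had the most Foxo3, 1692 of 9191 counts (18.4%).

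Foxo1 (ENSMUSG00000044167, chromosome 3, 52268336 to 52353221), the related factor with much the same targets, had medians of 13.8 CPM on land (6.29 to 53.1, 6 libraries), 9.39 in space with gravity (7.81 to 26.0, 5 libraries) and 17.4 in space without gravity (10.0 to 25.3, 6 libraries). The 3 ranges overlapped. Its highest value, 53.1 CPM, was in replicate 3 of land with nanoceria, the library with the most Col1a1. It shares 674 of 8665 exon bases with the antisense gene Gm20402, which had no counts.

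Klf15 (ENSMUSG00000030087, chromosome 6, 90462576 to 90475238), a transcription factor induced by glucocorticoids that promotes amino acid breakdown in muscle, had medians of 3.21 CPM on land (0 to 8.52), 4.81 in space with gravity (1.35 to 6.22) and 1.60 in space without gravity (0.535 to 7.80). These rest on 0 to 65 counts a library, and the ranges of the regimes overlapped.

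Mstn (ENSMUSG00000026100, chromosome 1, 53061640 to 53068079) had 1 count in the whole study, in the smallest library, and 0 in the other 17. A count of 0 there allows a level of up to 0.193 to 1.11 CPM, depending on the library (3 counts, counting error only), so the ligand was not detectable at this depth. Acvr2b (ENSMUSG00000061393, chromosome 9, 119402118 to 119434995), a receptor for myostatin and activins, had medians of 2.90 CPM on land (0.986 to 9.46), 1.68 in space with gravity (0.638 to 3.52) and 1.16 in space without gravity (0.671 to 3.64), on 3 to 41 counts a library. The ranges overlapped, and 2 counts in the smallest library made 23.8 CPM.

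Fst (ENSMUSG00000021765, chromosome 13, 114452262 to 114458730) encodes the secreted inhibitor of myostatin and activins. Its CPM was 13.6, 5.11 and 13.1 on land without nanoceria and 13.0, 13.6 and 109 with it. In untreated cells of space with gravity it was 5.74, 5.07 and 3.46, in treated cells 6.02 and 5.90, and 5 counts in the smallest library made 59.6 CPM. The libraries without gravity had 7.02, 3.86 and 4.81 CPM untreated and 22.3, 5.20 and 2.20 treated. Of the 11 deep space libraries 10 lay at or below 7.02 CPM, whereas 5 of the 6 land libraries lay at or above 13.0. The ranges still overlapped, through replicate 2 of land without nanoceria at 5.11 CPM and, for space without gravity, replicate 1 with nanoceria at 22.3 CPM. With DESeq2 size factors the 5 deep libraries of space with gravity (3.10 to 5.84 CPM) no longer overlapped land (6.25 to 139 CPM). That scaling moved the median log2 difference of all genes in this comparison from −0.04 to −0.39. The share of all genes with ranges apart under it was not counted. The summed level of 4 fibroblast markers, most of it Col1a1, also reached its highest values on land, at 17.6 to 899 CPM without nanoceria and 23.6 to 1756 with it, against 3.95 to 38.7 in space with gravity and 18.7 to 124 in space without gravity. The highest value of this sum was in the library with the most Fst, and its part in the Fst result was not tested. Col1a1 held 11768 of the 12026 counts in the sum, so it mostly followed Col1a1. Raw counts of Pdgfra were highest, at 56 of 203, in replicate 1 of space with gravity untreated, a deeply sequenced library. Thy1 had 7 counts in all. Dpt had 48, of which 39 were in replicate 3 of land untreated.

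**Figure D2:**
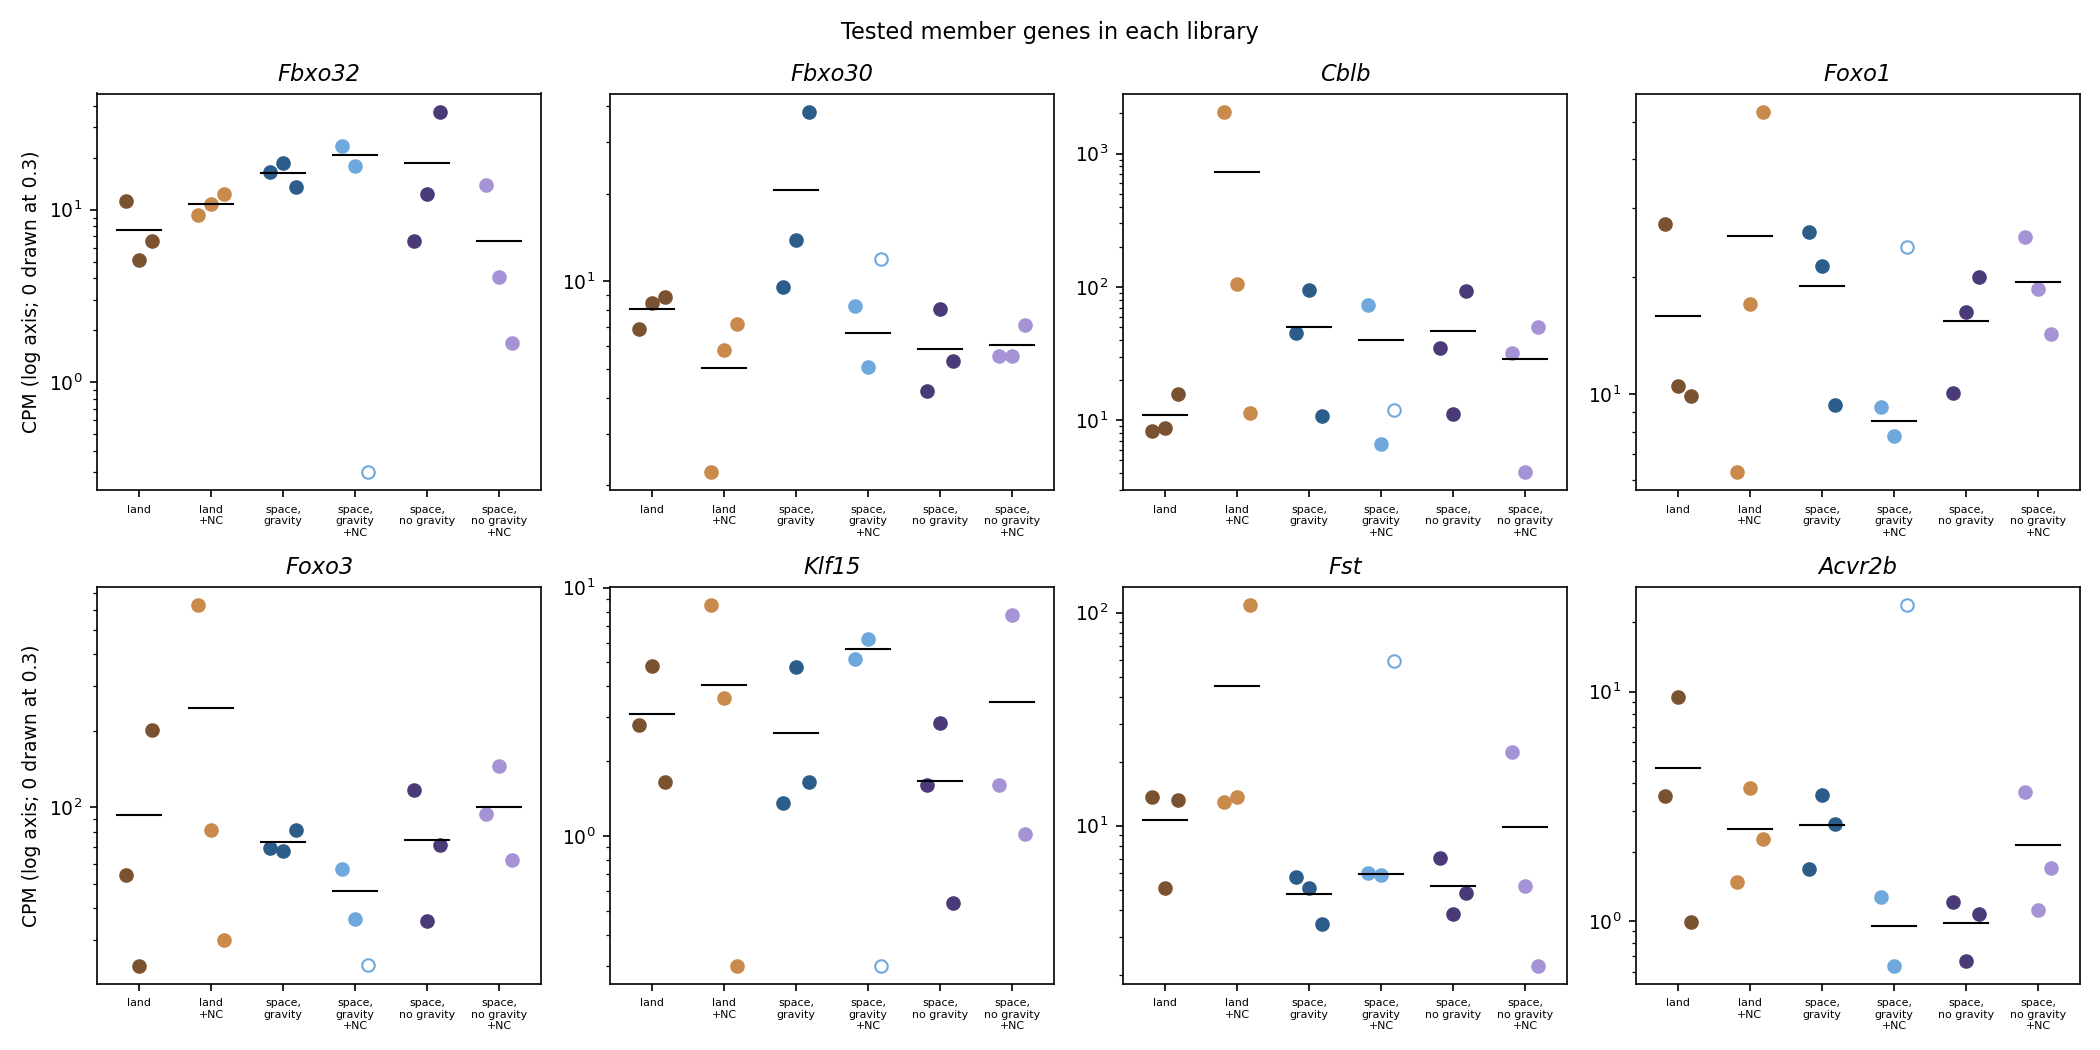
CPM of the 8 tested genes in each library (vertical log axis, with 0 drawn at 0.3), by group, where NC stands for nanoceria. Filled points are the 17 deep libraries, the hollow point is the smallest library and bars are group means without it. Fbxo32 in space with gravity (13.5 to 23.4 CPM) lies above land (5.11 to 12.4), and single land libraries stand out for Cblb (2066 CPM), Foxo3 (626) and Fst (109).

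The first comparison asked whether nanoceria moved these genes, averaged over the 3 regimes. None of the 8 passed the adjusted threshold, nor did any gene of the 11558 (0%). The largest differences were in Cblb, with a log2 difference of 1.60 ± 0.77 (SE, edgeR adjusted p 0.753), and Fst, with 1.48 ± 0.58 (95% interval 0.27 to 2.69, p 0.0194, adjusted p 0.752). The nanoceria difference of Cblb was 6.06 on land but −0.69 in space without gravity and −0.56 with it, and the average was 0.40 (edgeR adjusted p 0.969) without replicate 1 of land with nanoceria and 0.88 (adjusted p 0.808) without replicate 1 of space with gravity with nanoceria. At an unadjusted p under 0.05 there was 1 of the 8, Fst, against 6.54% of all genes. Without both the smallest library and replicate 3 of land with nanoceria, the difference in Fst was 0.52 (adjusted p 0.763). The other 6 lay between −0.71 ± 0.34 for Fbxo30 and 0.78 ± 0.59 for Klf15, and the intervals of Foxo1 (−0.81 to 0.88) and Acvr2b (−1.25 to 1.17) were centred near 0.

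Within regimes, the largest single difference was that of Cblb on land, where the log2 difference with nanoceria was 6.06 ± 1.62 (SE, edgeR p 0.00147, adjusted p 0.310). It was called by the DESeq2 test (6.05, adjusted p 0.000323) and by edgeR without a filter on low counts (6.02, adjusted p 1.525e-07). How many of all genes these settings called in this comparison was not counted. For nanoceria averaged over regimes, 214 of all genes passed without a filter, against 0 with it. Without replicate 1 of land with nanoceria the difference of Cblb on land was 2.44 (edgeR p 0.0533, adjusted p 0.670). The test of whether the nanoceria effect differed between regimes gave p 0.00618 for Cblb (edgeR adjusted p 0.727), and p 0.118 (adjusted p 0.897) without that library. Cblb was the 1 gene of the 8 at an unadjusted p under 0.05 in that test, against 6.14% of all genes, and no gene passed the adjusted threshold (0%). Without the smallest library, 6 of the 8 genes had ranges that did not overlap between treatments in space with gravity, where 2 libraries stood against 3, compared with 20.4% of all genes: Foxo1, Fbxo30, Foxo3 and Acvr2b were lower with nanoceria and Klf15 and Fst higher. Their edgeR adjusted p values, which include the smallest library, were all 1. Over the fits that each left out 1 library, the smallest among them, their lowest edgeR adjusted p was 0.587, for Fbxo30. Fst was apart by little, at 5.90 to 6.02 CPM against 3.46 to 5.74. In space without gravity and on land none of the 8 had ranges apart, against 8.05% and 10.1% of all genes.

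The second comparison asked how space without gravity differed from space with gravity, averaged over treatments. None of the 8 and none of all genes passed the adjusted threshold (0%), and 1 of the 8, Fbxo30, had an unadjusted p under 0.05, against 5.85% of all genes. The log2 difference of Fbxo32 was −0.60 ± 0.52 (SE, edgeR adjusted p 0.958), that of Foxo3 was 0.65 ± 0.64 (adjusted p 0.977) and that of Foxo1 was 0.31 ± 0.50 (adjusted p 1.00). The 2 FoxO factors were thus on the higher side and Fbxo32 and Fbxo30 on the lower, and none passed the test. With nanoceria, Fbxo32 was lower without gravity in all 3 libraries and Foxo1 and Foxo3 higher, against the 2 deep libraries with gravity, so 3 of the 8 had ranges apart, compared with 20.1% of all genes. Without nanoceria 2 of the 8 had ranges apart, Fbxo30 and Acvr2b, both lower without gravity, compared with 12.3%. Over both treatments none of the 8 had ranges apart, against 0.658% of all genes.

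In a further comparison, the libraries of space with gravity were set against those of land. None of the 8 passed the adjusted threshold, against 14% of all genes. At an unadjusted p under 0.05 there were 2 of the 8, Foxo3 and Fbxo30, against 31.9% of all genes. The log2 difference of Foxo3 was −1.46 ± 0.65 (SE, edgeR adjusted p 0.130) and that of Fbxo30 was 0.92 ± 0.42 (adjusted p 0.139). The DESeq2 test, which called 2691 of all genes, called Foxo3 (−1.76 ± 0.60, adjusted p 0.0201). Its edgeR value was −0.35 (adjusted p 0.691) without replicate 1 of land with nanoceria, −0.80 (adjusted p 0.395) without replicate 3 of land without nanoceria and −0.29 (adjusted p 0.749) without both the smallest library and replicate 1 of land with nanoceria. Fst differed by −1.48 ± 0.73 (95% interval −3.02 to 0.06, adjusted p 0.174). Without the smallest library, where 1614 of all genes were called against 1613 with all libraries, Fst was −2.06 ± 0.63 (edgeR adjusted p 0.0425). It was then the only one of the 8 called. With replicate 1 of land with nanoceria left out as well, 1647 of all genes were called, and Fst was −2.23 and still called (adjusted p 0.0360). The call was lost when replicate 3 of land with nanoceria was left out as well (−1.14, adjusted p 0.167), and when replicate 1 of land without nanoceria was (−1.89, adjusted p 0.0956). In the fit with the 6-gene share of counts as covariate, where only 1 of all genes was called, Fst was −3.47 (edgeR adjusted p 0.228). DESeq2 gave no adjusted p for Fst. The intervals of Foxo1 (−1.59 to 0.52), Acvr2b (−2.15 to 0.92), Klf15 (−1.47 to 1.59) and Cblb (−3.09 to 0.88) all included 0.

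**Figure D3:**
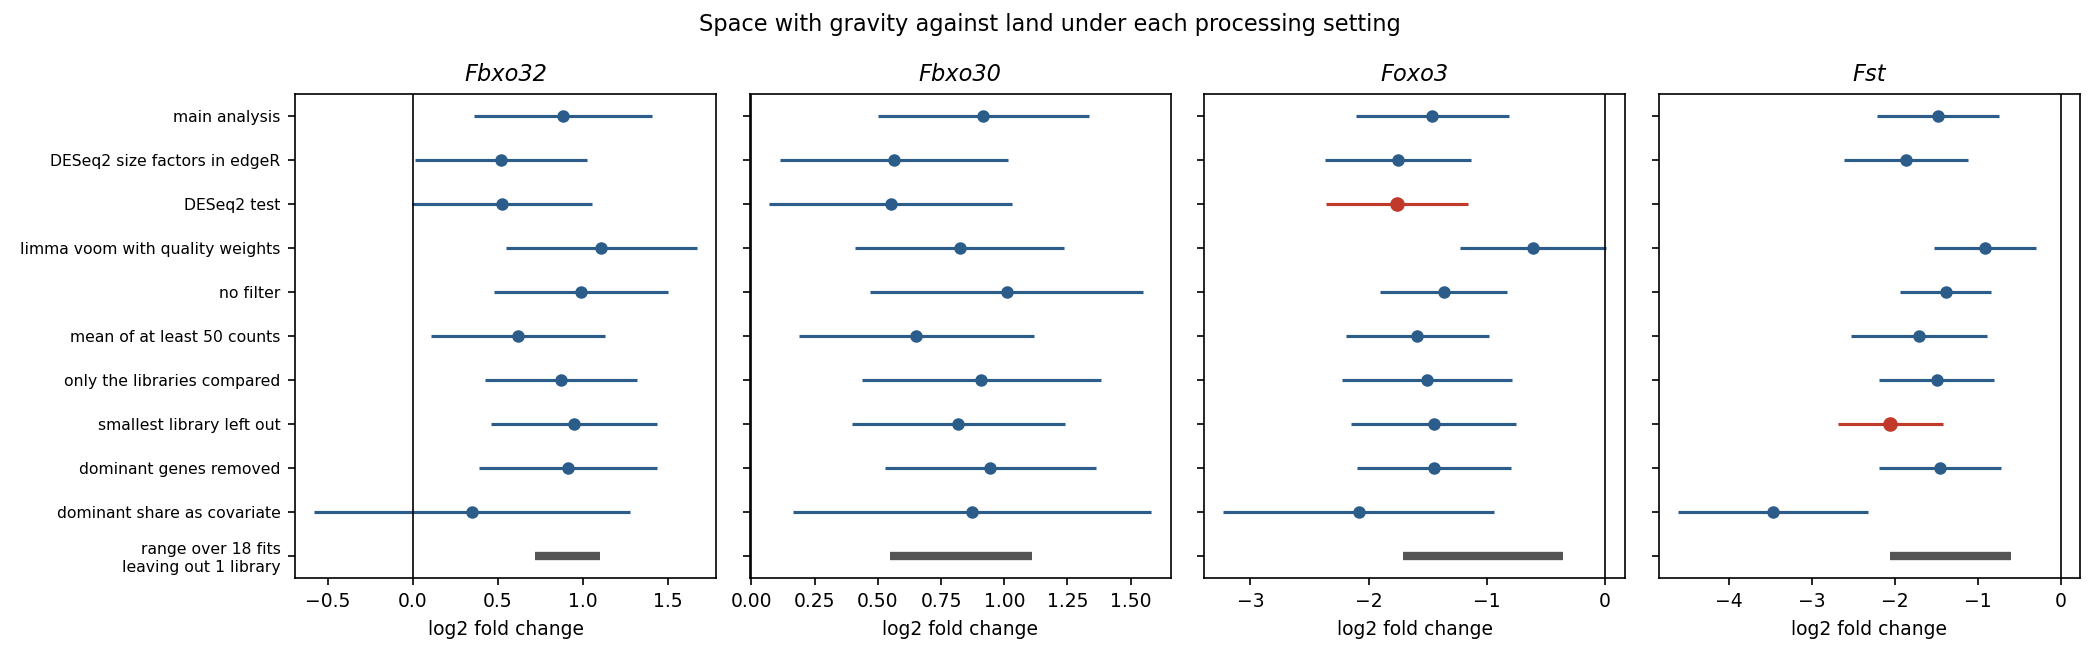
Log2 difference between space with gravity and land (horizontal axis, points with bars of 1 SE) for Fbxo32, Fbxo30, Foxo3 and Fst under each planned processing setting, with red where the adjusted p was under 0.05. The grey bar is the range over 18 fits that each leave out 1 library. The DESeq2 test gave no adjusted p for Fst, so its point is not drawn. Red marks only Foxo3 under DESeq2 (−1.76) and Fst without the smallest library (−2.06), and no point changes sign; settings chosen after seeing the data are not drawn.

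The last comparison was of space without gravity with land. None of the 8 passed, against 5.25% of all genes, and 1 of the 8, Fst, had an unadjusted p under 0.05, against 24.7% of all genes. The log2 difference of Fst was −1.60 ± 0.67 (SE, 95% interval −3.00 to −0.19, edgeR adjusted p 0.151). It passed only without a filter on low counts (−1.53, adjusted p 0.0471), where 1466 of all genes passed. Without both the smallest library and replicate 3 of land with nanoceria, Fst was −0.71 (adjusted p 0.409). Acvr2b differed by −1.22 ± 0.66 (adjusted p 0.257), and Fbxo32 by 0.28 ± 0.52 (95% interval −0.80 to 1.37). None of the 8 had ranges apart, over both treatments (2.91% of all genes), without nanoceria (17.5%) or with it (20.7%). Both space regimes were compared with the same land libraries. With nanoceria, Cblb differed from land by −4.42 ± 1.51 in space with gravity and by −4.66 ± 1.51 in space without it (edgeR adjusted p 0.138 and 0.123), and the genes called among all 11558 were 0.00865% and 0.0433%. The DESeq2 test called Cblb in both (−4.79, adjusted p 0.00356, and −4.95, adjusted p 0.00217), as did edgeR without a filter (−4.28, adjusted p 0.000151, and −4.56, adjusted p 3.361e-05). Without replicate 1 of land with nanoceria the edgeR values were −0.73 and −0.99. Foxo3 with nanoceria differed from land by −2.56 ± 0.96 in space with gravity (edgeR adjusted p 0.162). It was called by the DESeq2 test (−2.83, adjusted p 0.0227) and by edgeR without a filter (−2.46, adjusted p 0.0446), and was −0.39 without that replicate. For these pairwise calls under DESeq2 or without a filter, the number of all genes called was not counted.

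**Figure D4:**
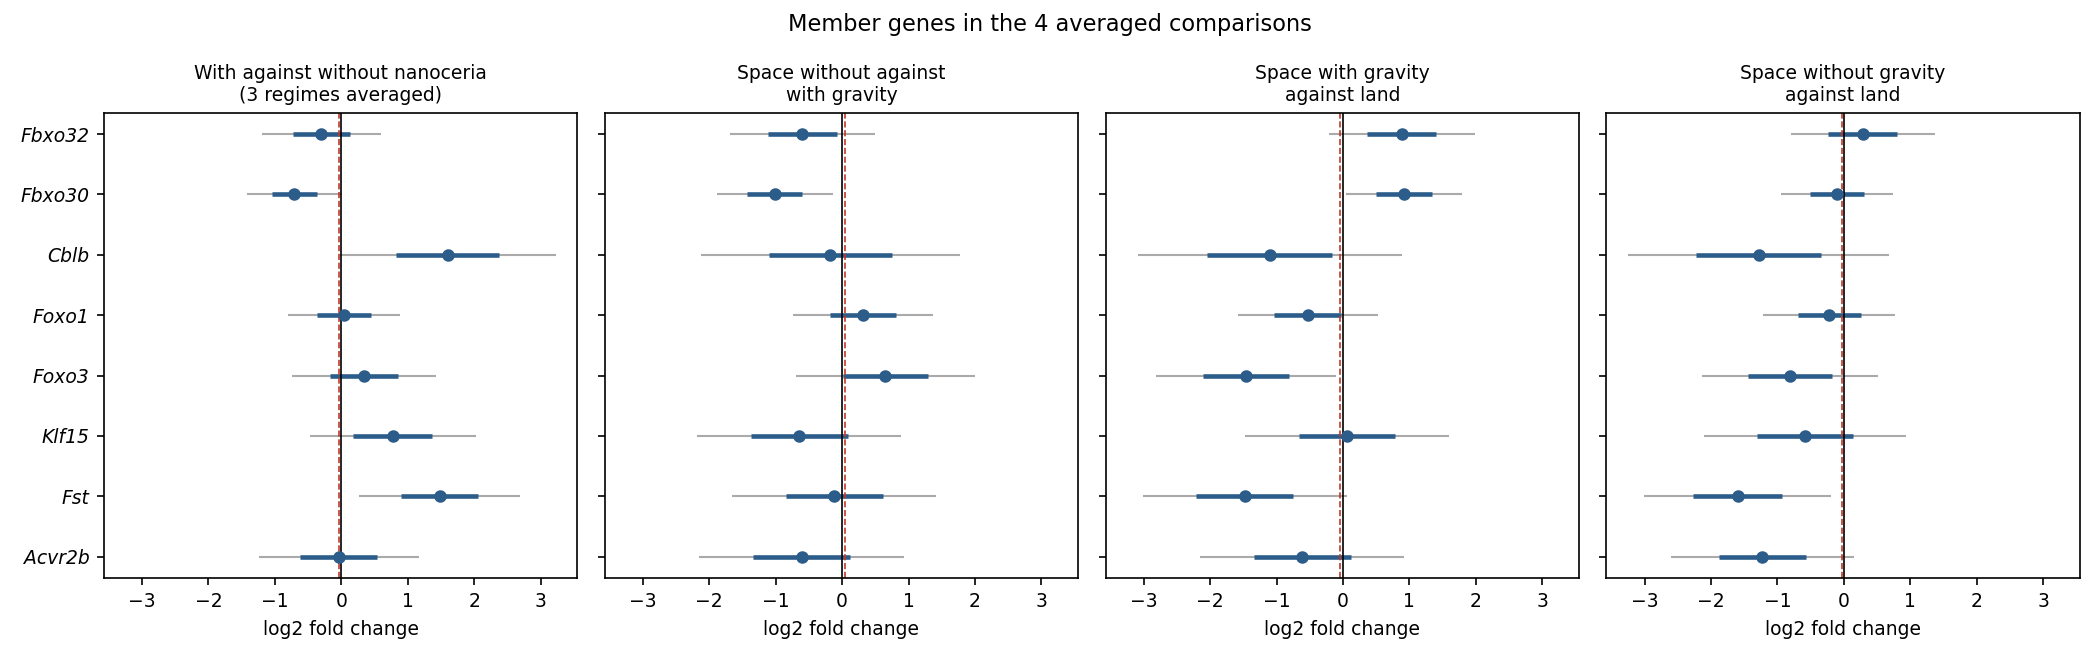
Fitted log2 difference of the 8 tested genes in the 4 averaged comparisons (horizontal axis), with thick bars of 1 SE, thin bars of the 95% interval and a dashed red line at the median of all 11558 genes. No gene passed the adjusted threshold, and the intervals that leave out 0 are those of Fst with nanoceria and in space without gravity against land, of Fbxo30 in space without against with gravity, and of Foxo3 and Fbxo30 in space with gravity against land.

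The wider pathway was described with 3 lists chosen for their roles: ligases and proteolysis, myostatin and activin signalling, and glucocorticoid response. In the nanoceria and the gravity comparisons no gene of any list passed the threshold, nor did any other gene. Against land, space with gravity had 1 of 16 tested genes of ligases and proteolysis higher, with a median log2 difference of −0.12 over the list and −0.04 over all genes. It had none of 16 genes of myostatin and activin signalling (median 0.01) and 1 of 8 glucocorticoid response genes lower (median −0.25). Space without gravity had 1 of 16 lower, 1 of 16 higher and none of 8 called in the same order, with medians of −0.05, 0.01 and −0.01 beside −0.02 over all genes. These counts stand beside the 14% and 5.25% called among all genes.

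Of the genes called, Traf6, a ligase that acts in atrophy signalling, rose by 1.69 ± 0.54 in space with gravity (edgeR adjusted p 0.0460), and Ddit4, an inhibitor of mTORC1 induced by glucocorticoids, fell by 1.43 ± 0.43 (adjusted p 0.0365). In space without gravity, Psmd11, a subunit of the proteasome's regulatory particle, fell by 1.39 ± 0.37 (adjusted p 0.0388), and Tgfbr1, a type I receptor of the TGF-beta family, rose by 2.42 ± 0.65 (adjusted p 0.0418). Of 9 alternative settings, Traf6 was called in 2, Tgfbr1 in 5 and Ddit4 and Psmd11 in 6 each. Leaving out 1 library ended the call of each of these genes in most of the 18 fits. Traf6 was still called only without replicate 1 of either land treatment or, in space without gravity, replicate 2 of either treatment or replicate 3 with nanoceria. Ddit4 was still called only without replicate 2 of either land treatment, replicate 2 or 3 of space with gravity with nanoceria, or replicate 2 of space without gravity untreated. Psmd11 was still called only without replicate 3 of land untreated, replicate 1 of land with nanoceria or the smallest library. Tgfbr1 was still called only without replicate 1 of land with nanoceria, replicate 2 or 3 of space with gravity untreated, or, in space without gravity, replicate 2 untreated or replicate 3 with nanoceria.

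The genes most like each of the 6 members with a mean of at least 50 counts were found by Pearson's r of log2 CPM over 17 libraries, as a description, since the libraries share groups and depths. For Foxo3 they were Ttyh2 (r 0.949) and Tcf20 (0.937), and r was 0.900 and 0.882 over the 15 libraries left without the 2 in which Foxo3 was farthest from its median. For Fbxo30, Gzf1 is given (0.853, then 0.727), and for Cblb they were Zfx (0.886, then 0.744) and Lin7a (0.876, then 0.712). For Fst they were Fam117a (0.887, then 0.636) and Mmp14 (0.876, then 0.738), for Fbxo32 Wdr70 (0.856, then 0.763) and Smurf1 (0.773, then 0.698), and for Foxo1 Fut11 (0.789, then 0.673) and Fchsd2 (0.779, then 0.541). No member was among these: the nearest pairs of members were Foxo3 with Cblb (0.599) and Foxo1 with Fst (0.508). Foxo3 and Cblb both had their highest CPM in replicate 1 of land with nanoceria (626 and 2066). Foxo1 and Fst both had theirs in replicate 3 of that group (53.1 and 109). For these pairs r was not taken without those libraries.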

How the data were processed

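Polyadenylated RNA of 18 libraries was analysed; the 18 small RNA samples were not analysed here. The authors deposited raw counts per Ensembl gene, 1 library a file, with exon coordinates and length, per the file headers. Per the submitters' processing notes, CASAVA, Trimmomatic 0.36.29, STAR, Subread and featureCounts were used with GRCm38.p6; their settings, including strand, were not given in the sources used here. Replicate numbers follow record order, and p-values measure the spread between experiment units, which may be technical.

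Genes kept by filterByExpr (11558) were fitted with edgeR 4.0.16 (R 4.3.3): TMM scaling, robust quasi-likelihood, a mean for each of 6 groups and 12 residual degrees of freedom. The 14 tests were 4 averaged, 9 pairwise and 1 between regimes, each adjusted over all genes. Log2 CPM used a prior count of 2. Alternatives were DESeq2 1.42.0 size factors and test, limma 3.58.1 voom with quality weights, other filters, only the libraries compared, and left-out libraries or dominant genes, with the dominant genes' share of counts also tried as a covariate. The fits leaving out the smallest library together with 1 land library were chosen after seeing the data. The test was tried on simulated data.

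The 10 genes and all lists were chosen with earlier results of these data known. All 10 were named whatever their values; from each list and averaged comparison, up to 2 called genes with the highest and 2 with the lowest change; and, for likeness, the 2 genes with the highest r. A gene of the likeness search and a list of FoxO partners and targets are not reported here.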

Additional observations from a re-analysis of the deposited data

How the results depend on the processing

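No paired analysis was possible because no label ties libraries of different groups together. The number of the 10 genes past the threshold was 0 in all 6 families of comparisons with edgeR on the filtered counts of all libraries. In space with gravity against land it was 1 under the DESeq2 test, 1 with the smallest library left out and 1 with replicate 1 of land with nanoceria left out too (0 to 1 over the fits without one library). Without a filter on low counts it was 1 in space without gravity against land and 1 for the nanoceria effect differing between regimes. In the 9 pairwise comparisons it was 2 under the DESeq2 test and 2 without a filter, Foxo3 and Cblb each time. The number of all genes called there under these settings was not counted. Of 268 values under planned settings, 249 kept their direction and side of the threshold, 3 passed it and 16 changed sign; of 576 without one library, 534, 1 and 41 did. DESeq2 size factors moved the median log2 difference of all genes from −0.04 to −0.39 in space with gravity against land and from −0.02 to −0.28 in space without gravity against land. Over all genes, the number called in space with gravity against land ran from 1 (dominant share as covariate) to 2691 (DESeq2 test) around 1613, and from 459 (without replicate 1 of space with gravity with nanoceria) to 1614 without one library. In space without gravity against land it ran from 6 to 1524 around 607, and from 82 (without replicate 1 of land without nanoceria) to 713. Without both the smallest library and that land library the counts were 1033 and 203. Without a filter, 214 genes passed for nanoceria, 229 for gravity and 551 for the difference between regimes, against 0 with it; the DESeq2 test gave 1, 11 and 8. The cause was not tested.

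None of the values that changed sign had passed the threshold. For nanoceria, Foxo1 was −0.24 with voom, −0.027 without the smallest library and −0.42 without replicate 3 of land with nanoceria as well; Foxo3 was −0.32 without the smallest library and replicate 1 of land with nanoceria; Acvr2b was 0.00046 under the DESeq2 test. For gravity, Fst was 0.42 without the smallest library, 0.43 when a land library (replicate 1 or 3 with nanoceria, or replicate 1 without it) was left out too, and 0.96 with the covariate, where Cblb was 0.63. For space with gravity against land, Foxo1 was 0.10 with voom; Klf15 was −0.28 with DESeq2 size factors, −0.30 under the DESeq2 test, −0.024 with voom and −0.15 without the smallest library and replicate 3 of land with nanoceria; Cblb was 0.85 without the smallest library and replicate 1 of land with nanoceria. For space without gravity against land, Fbxo32 was −0.042 with DESeq2 size factors, −0.042 under the DESeq2 test and −0.0027 with the covariate; Fbxo30 was 0.0039 with voom; Foxo1 was 0.38 with voom; Klf15 was 0.31 with the covariate. There, without the smallest library and replicate 3 of land with nanoceria, Fbxo30 was 0.068 and Foxo1 0.35; with replicate 1 of land with nanoceria left out instead, Foxo3 was 0.27 and Cblb 0.55; with replicate 1 of land without nanoceria left out instead, Foxo1 was 0.14.

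Over the fits without one library, the values that changed sign ran as follows. For nanoceria, Fbxo32 ran from −0.71 to 0.042, Foxo1 from −0.33 to 0.25, Foxo3 from −0.38 to 0.77 and Acvr2b from −0.36 to 0.37. For gravity, Fst ran from −0.84 to 0.42 and Cblb from −0.68 to 0.90. For space with gravity against land, Foxo1 ran from −0.72 to 0.042, Acvr2b from −1.20 to 0.023, Klf15 from −0.32 to 0.63 and Cblb from −2.17 to 0.76. For space without gravity against land, Fbxo32 ran from −0.30 to 0.53, Fbxo30 from −0.24 to 0.067, Foxo1 from −0.41 to 0.35, Foxo3 from −1.06 to 0.29 and Cblb from −1.77 to 0.58. Depth limits Trim63, Mstn, Acvr2b and Klf15 most. For the nanoceria comparison and the difference between regimes, a fit on only the libraries compared holds all libraries and was not run.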
